A study of Ovis aries with 24 samples.

Results

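Respiratory complex I, the NADH:ubiquinone oxidoreductase, was followed across skeletal muscles of sheep with and without the callipyge mutation. Its members here are the genes whose single symbol in the platform annotation starts with NDUF, and each was read through its probe set of highest mean log2 signal over the 24 arrays. This gave 42 members of 9155 annotated symbols. Between them they hold 57 probe sets, and 12 members have several. All 42 passed the filter on low signal (above the median log2 signal of a group in at least 1 of the 12 groups), and the sheep's RefSeq gene table lists all 42 symbols.

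Complex I oxidises NADH in the mitochondrial matrix, passes the electrons along a chain of iron-sulphur clusters to ubiquinone and uses the energy to pump protons across the inner membrane. Its matrix arm carries the NADH-oxidising module and the quinone-reducing module, and its membrane arm carries the pump. The catalytic core consists of nuclear subunits in the matrix arm and of subunits encoded by mitochondrial DNA in the membrane arm, no gene of which was measured here. Accessory subunits surround the core, and separate assembly factors build the complex without remaining in it. In skeletal muscle, oxidative fibres are rich in mitochondria and glycolytic fibres have fewer.

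The members fell into 8 of the NADH module, 4 of the quinone module, 3 other subunits of the matrix arm, 9 of the proximal and 12 of the distal membrane arm, 4 assembly factors, and NDUFA4 with its paralog NDUFA4L2. NDUFA4 carries the complex I name but is now placed in cytochrome c oxidase. The nuclear core subunits measured were 6: NDUFV1, NDUFV2, NDUFS1, NDUFS3, NDUFS7 and NDUFS8.

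RNA came from cross-bred Dorset, Suffolk and Rambouillet lambs and was hybridised to a bovine Affymetrix array, so sheep transcripts were read by bovine probes. Longissimus dorsi (LD), a back muscle, was taken within 5 days of birth and again at 11 to 12 weeks of age, from 4 genotypes at the callipyge locus: CC with 2 mutant alleles, CN with the mutant allele from the sire, NC with it from the dam, and NN with none. CN is the genotype that develops enlarged muscle. At 12 weeks the shoulder muscle supraspinatus (SS) was measured in CN and NN, and the hind limb muscles SM and semitendinosus (ST) in NN. The labels spell out SM in more than 1 way, so the code is kept, and some 12-week labels also carry the word birth. Each of the 12 groups has 2 arrays, which the labels call technical replicates. The protocol describes LD from 8 male lambs, 4 of each of a pair of genotypes. How many lambs stand behind an array is not known here. A difference between lambs, or in their exact age, therefore cannot be told apart from one of genotype. The same holds for differences between birth and 12 weeks, and between muscles if these came from different lambs.

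Both arrays of a group were averaged on the log2 scale, so that a group gave the fits 1 value. The 3 genotypes CC, NC and NN of LD at an age served as 3 values of one cell. Differences between groups are given on the log2 scale of the MAS5 signal, each with its standard error (SE) from limma. A member was called at a Benjamini-Hochberg adjusted p under 0.05 over all 15613 tested probe sets. Groups with a single value were assumed to vary like those 3 genotypes. The spread behind the p-values is that of group values, which may not be that between animals.

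Complex I members were bright. Their mean signal ran from 73.3 for NDUFB5 to 19380 for NDUFA4, against array medians of 47.4 to 59.7, and 34 of 42 lay in the brightest 10% of tested probe sets. The arrays of a group differed by a median of 0.177 on the log2 scale over members and by 0.336 over all tested probe sets. Members also moved together between technical arrays. In ST, 39 of 42 were higher on the second array than on the first, and their median level differed by 0.358, the largest such gap of the 12 groups. In SS of NN the gap was 0.005. Muscle fibre markers (7 of 10 listed genes measured, ACTA1 and CKM among those listed) summed to a signal of 147396 to 236995 over the 24 arrays, so skeletal muscle transcripts were abundant in every group.

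**Figure D1:**
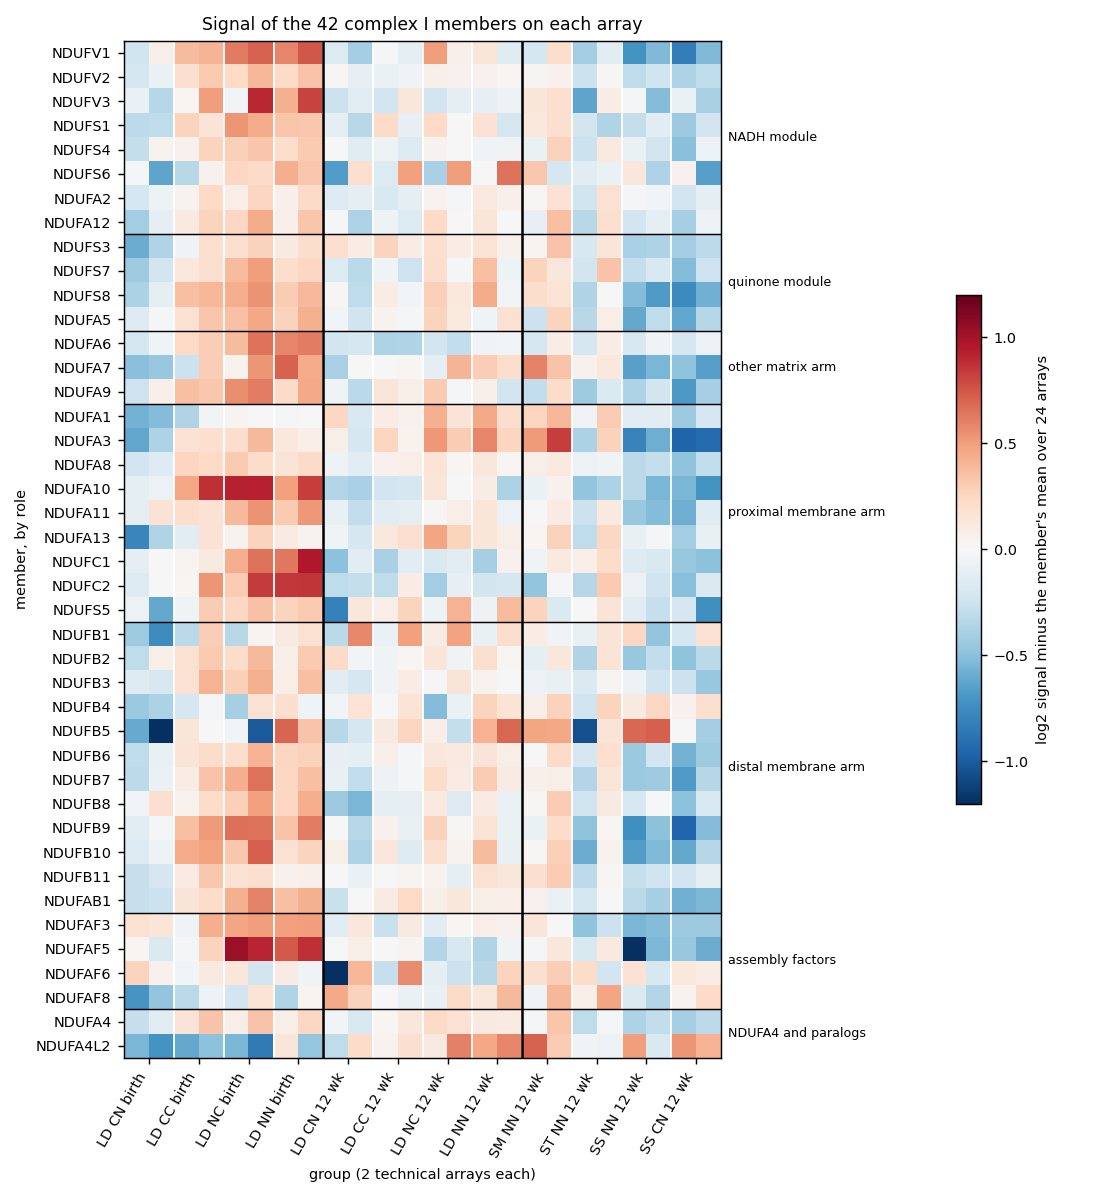
Log2 signal of each of the 42 members (rows, ordered by role) on each of the 24 arrays (columns, 2 per group), as the difference from that member's own mean over all arrays. Red is above and blue below that mean. In LD at birth the 2 CN columns are mostly pale or blue beside the red columns of CC, NC and NN, and both SS groups at 12 weeks are mostly blue.

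In LD at birth, the signal of most complex I members was lower in the CN group than in the other genotypes, in both arms of the complex. Of the 42 members 41 were lower, with a median log2 difference of −0.52, against −0.02 over all tested probe sets and −0.07 in the brightest 10%. No single member was called. Over all probe sets 0.173% were called, 20 higher and 7 lower. The smallest adjusted p of a member was 0.0575, for NDUFS3. At an unadjusted p under 0.05, 34 members were lower and 0 higher, where 7.21% of all tested probe sets were lower and 4.48% higher. On the arrays themselves, both CN values lay below all 6 values of CC, NC and NN for 33 of 42 members, against 9.71% of all tested probe sets and 23.6% of the brightest 10%. CN at birth is a single group value, and members moved together even between technical arrays. The counts of members are therefore not independent observations.

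The NADH module takes electrons from NADH. NDUFV1, the core subunit that binds NADH and its flavin cofactor, gave signals of 3571 and 4463 on the CN arrays, and 5475, 6415 and 7082 as the lowest, median and highest of the 6 other arrays. These ranges did not overlap, and the log2 difference was −0.65 ± 0.17 (SE; limma adjusted p = 0.136). NDUFS1, the core subunit with several iron-sulphur clusters, read 5007 and 5052 in CN against 6962 to 8996 (median 7829), a difference of −0.65 ± 0.14 (limma adjusted p = 0.0778). The iron-sulphur subunit NDUFV2 was at −0.43 ± 0.12 with 8075 and 8859 against 10714 to 12317. All 8 subunits of this module were lower in CN, from −0.65 to −0.29. For 7 of them both CN arrays lay below the 6 others, and NDUFS6, a zinc-binding accessory subunit with noisy arrays (637.9 and 975.4 in CN, 784.8 to 1331 elsewhere), was the one that overlapped.

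The quinone module hands the electrons to ubiquinone, and its 4 measured subunits were separated on the arrays without exception. NDUFS3, a core subunit at the base of the matrix arm, read 4916 and 5796 in CN and 7179, 8499 and 9015 (lowest, median, highest) in the other genotypes. Its difference of −0.63 ± 0.12 had the smallest adjusted p of all members at birth (0.0575, limma). NDUFS8, which carries iron-sulphur clusters next to the quinone site, was at 2674 and 3239 against 4295 to 5064, a difference of −0.65 ± 0.14 (limma adjusted p = 0.0778). NDUFS7, which holds the last cluster before ubiquinone, was at −0.60 ± 0.16, and the accessory subunit NDUFA5 at −0.43 ± 0.13. The next probe set of NDUFA5, with a mean signal of 2269, was at −0.055 ± 0.171, and its dim one (mean signal 48) at −0.581 ± 0.418. The 6 core subunits had a median of −0.64, and the other 36 members had one of −0.50.

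Among the other matrix-arm subunits, NDUFA7 read 434.6 and 449.6 in CN against 516.7 to 1011 (median 798.1), or −0.78 ± 0.22 (limma adjusted p = 0.164). NDUFA6, which docks the acyl carrier protein NDUFAB1 on the complex, was at −0.59 ± 0.17. NDUFA9, which lies near the quinone site, was at −0.52 ± 0.15. All 3 were separated on the arrays.

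In the proximal membrane arm all 9 subunits were lower in CN and all 9 were separated on the arrays. NDUFA10, an accessory subunit with a nucleoside-kinase fold, gave 1370.1 and 1403 in CN against 2031, 2654 and 2816 as lowest, median and highest of the others. Its log2 difference was −0.84 ± 0.17, a signal 1.79-fold lower (limma adjusted p = 0.0652). NDUFA3 read 2318 and 2768 against 3790.0 to 4683, or −0.70 ± 0.15 (limma adjusted p = 0.0823). NDUFA13, also known as GRIM-19, was at −0.66 ± 0.14 and NDUFA11 at −0.33 ± 0.17, the smallest difference of this group.

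The distal membrane arm had 12 of 12 subunits lower and 8 separated. NDUFAB1, the mitochondrial acyl carrier protein, read 4975 and 5033 against 6673 to 9105, or −0.63 ± 0.14 (limma adjusted p = 0.0944). NDUFB9, a subunit on the matrix side, was at −0.59 ± 0.14. NDUFB8 had the smallest difference of this arm, −0.20 ± 0.14, with 1 CN array (14059) inside the range of the others (12530 to 17119) and 1 below it (11950). NDUFB5 had the lowest difference of all members, −0.96 ± 0.44 (limma adjusted p = 0.433), but from a dim probe set: 30.2 and 48.3 in CN against 36.4 to 119.0, with the CN values under or at the array medians.

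Assembly factors were mixed. NDUFAF5, which modifies NDUFS7 during assembly, read 262.6 and 299.5 in CN against 293.1 to 603.7 (median 516.8), or −0.71 ± 0.30. Its arrays overlapped, and the lowest of the others was a CC array. NDUFAF8, a partner of NDUFAF5, was at −0.46 ± 0.19, and NDUFAF3, an early factor for the quinone module, at −0.23 ± 0.16. NDUFAF6 was the 1 member that was higher in CN, at 0.15 ± 0.24 with 159.2 and 184.9 against 132.1 to 169.2. NDUFA4 read 15966 and 17715 against 20322 to 24592, a difference of −0.41 ± 0.12. The dim paralog NDUFA4L2, a hypoxia-induced protein, was at −0.16 ± 0.32 and overlapped.

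**Figure D2:**
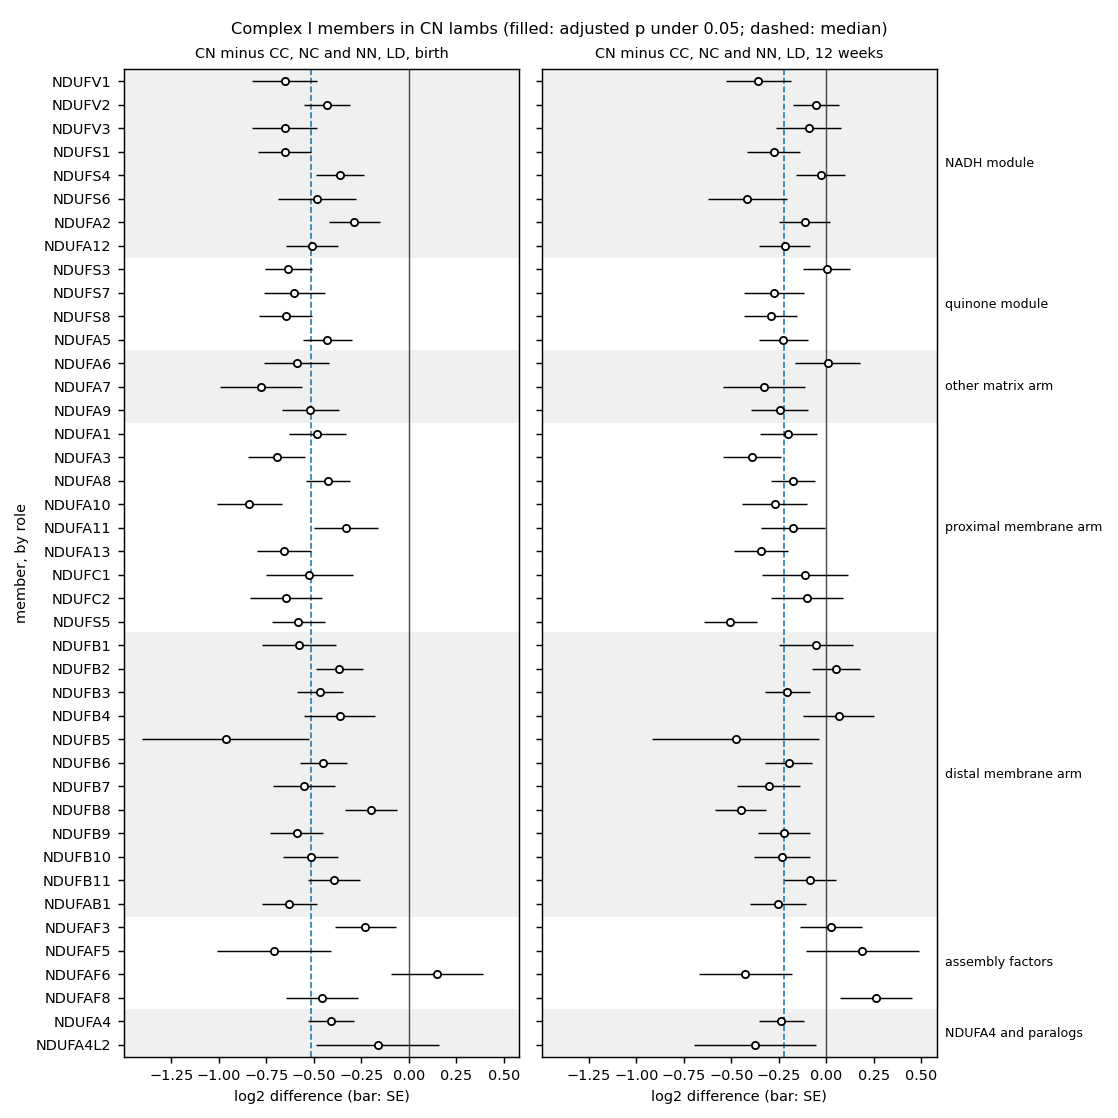
Log2 difference of CN from CC, NC and NN in LD for each member (rows, by role) at birth (left) and at 12 weeks (right). Points are limma estimates and bars their standard errors, and open points did not pass the adjusted threshold. The dashed line marks the median of the members. It lies at −0.52 at birth and at −0.22 at 12 weeks, and only NDUFAF6 is above 0 on the left.

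Lower signal in CN at birth extended to the other respiratory complexes. All 4 measured genes of complex II were lower with a median of −0.49, all 9 of complex III with −0.55, all 13 of complex IV with −0.41 (1 called) and all 17 of the ATP synthase with −0.39. Complex I assembly factors with other names, such as ACAD9, ECSIT and TMEM126A, were lower in 8 of 10 (median −0.36, 0 called). The 6 tested regulators of mitochondrial gene expression had a median of 0.00, with PPARGC1A at −0.05 ± 0.24 and TFB2M at 0.00 ± 0.23. Most lists of fibre and cell type markers stood lower as well. All 5 tested endothelial markers were lower, with a median of −0.80 and summed signals of 1971 and 2028 in CN against 2291 to 2665 in the other genotypes. All 8 slow-fibre markers were lower, with a median of −0.29 and sums of 92115 and 103973 against 109232 to 131745. General fibre markers were lower in 6 of 7 with a median of −0.21. Medians were −0.60 for red blood cell markers (5 of 5 lower), −0.36 for fibroblast and matrix (7 of 8) and −0.29 for adipocyte markers (4 of 4), and 0.37 for 3 immune and 1.27 for 3 cardiac or smooth muscle markers, with 0 called in these lists. Their part in the complex I difference was not tested, and in bulk muscle fewer cells of a type and less RNA per cell cannot be told apart. The log2 ratio of the 3′ over the 5′ GAPDH control is a sign of RNA quality. It was 0.23 and 0.225 on the CN arrays, inside the 0.131 to 0.307 of the other birth arrays. The same ratio for actin was 0.009 and 0.223 on the CN arrays and −0.07 to 0.196 on the others, so 1 CN array lay above them. The count of 0 called members changed when 1 CN array was left out: 4 members passed without the first CN array at birth, and 9 without the second.

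**Figure D3:**
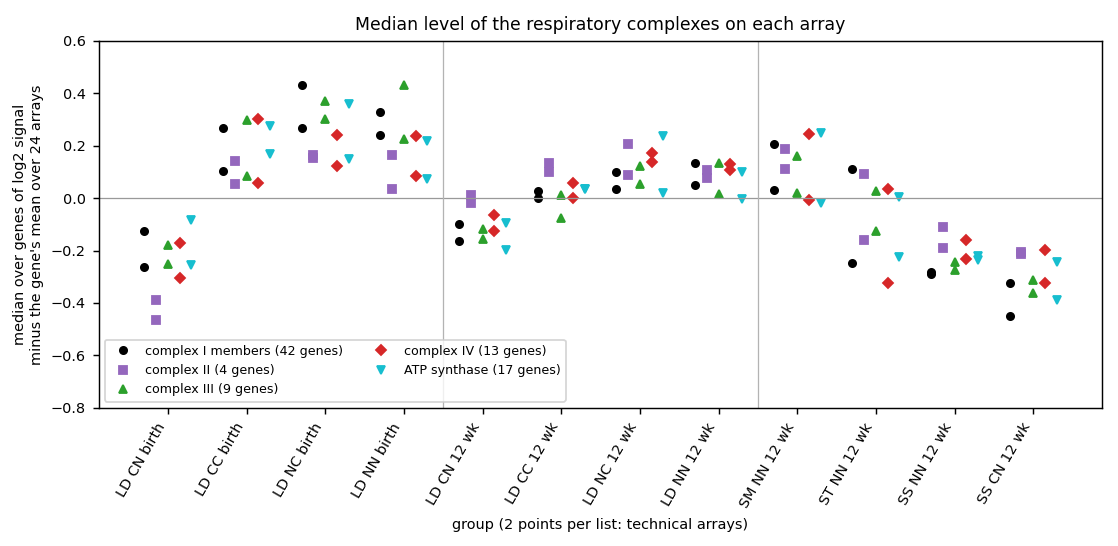
Median level of the genes of each respiratory complex on each array, as log2 signal minus the gene's mean over 24 arrays; groups run along the axis with 2 points per list, and symbols mark the complexes. The complex I points of LD CN at birth are at −0.262 and −0.125, below all 6 points of the other genotypes at birth (0.103 to 0.432).

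At 12 weeks the members' differences in LD lay nearer to 0. Of 42 members 35 were lower, with a median of −0.22 against −0.05 over all probe sets, and 0 were called (0.179% of all probe sets were). At an unadjusted p under 0.05, 4 members were lower (NDUFS5, NDUFB8, NDUFA3 and NDUFA13) and 0 higher, where 7.23% of all probe sets were lower and 2.79% higher. Both CN arrays lay below the 6 others for 9 of 42, against 7.56% of all probe sets and 13.6% of the brightest 10%. Without the second CN array 2 members passed and the median was −0.15.

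NDUFS5, an accessory subunit on the intermembrane side, had the lowest difference, −0.51 ± 0.14 (limma adjusted p = 0.217). Its CN arrays read 1070 and 2060 against 1795 to 2500 in the other genotypes, so 1 lay below them and 1 among them. The difference was −0.98 without the second CN array (limma adjusted p = 0.00796) and −0.03 without the first. NDUFB8 was steadier: 8360 and 9039 in CN against 10961, 11467 and 13272 in the others, a difference of −0.45 ± 0.14 without overlap (limma adjusted p = 0.252). NDUFS3, the member of smallest p at birth, read 8551 and 7903 in CN against 7701 to 8964, a difference of 0.00 ± 0.12. NDUFV2 was at −0.05 ± 0.12 and NDUFV1 at −0.36 ± 0.17. NDUFAF8 was the highest at 0.26 ± 0.19. Among the lists, slow-fibre markers were lower in 8 of 8 with 2 called (median −0.60), and their sums of 72548 and 77985 in CN lay below the 104176 to 141953 of the other genotypes. Fibroblast and matrix markers were lower in 7 of 8 with 0 called (median −0.37), and their sums of 31478 and 35914 lay below the 41987 to 56805 elsewhere. Adipocyte markers (4 of 4, median −0.77) and endothelial markers (5 of 5, median −0.34) were lower too, with 0 called. The GAPDH ratio was −0.033 and 0.085 on the CN arrays and 0.043 to 0.246 on the others. For actin it was 0.047 and 0.036 on the CN arrays and 0.031 to 0.294 on the others. Complexes II, III and IV and the ATP synthase had medians of −0.09, −0.24, −0.17 and −0.18, with 1 gene called, in the ATP synthase. Whether any of these bears on the members' values was not tested.

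The change in the CN difference between the ages was tested as an interaction. It was positive for 39 of 42 members, with a median of 0.31 against −0.03 over all probe sets. No member was called, nor was any other probe set (0% of 15613). At an unadjusted p under 0.05, 7 members were higher, where 3.87% of all probe sets were, and 0 were lower, where 5.07% were. NDUFS3 had the smallest p, with an interaction of 0.64 ± 0.18 (limma adjusted p = 0.326). The highest estimates were those of the assembly factors NDUFAF5 (0.90 ± 0.42) and NDUFAF8 (0.72 ± 0.27). The 3 members below 0 were NDUFAF6 (−0.58 ± 0.34), NDUFB8 (−0.25 ± 0.19) and NDUFA4L2 (−0.21 ± 0.46). Without the first CN array at 12 weeks NDUFAF6 was at 0.28 and NDUFA4L2 at 0.06.

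Levels in the 4 sets of LD arrays show what lies behind these estimates. In CC, NC and NN the 12-week level minus the birth level had a median of −0.24 over members, 33 of them lower. In CN the same step had a median of 0.08, with 13 members lower and 29 higher. CN at birth was below the other genotypes at 12 weeks for 33 members, with a median of −0.28, and its 2 arrays lay below all 6 of those for 19 (13.8% of all probe sets). NDUFS3 illustrates this with mean signals of 5338 in CN and 8281 in the others at birth, and of 8221 and 8212 at 12 weeks. NDUFA10 differs from it: 1386 in CN and 2481 in the others at birth, then 1140 and 1377 at 12 weeks.

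**Figure D4:**
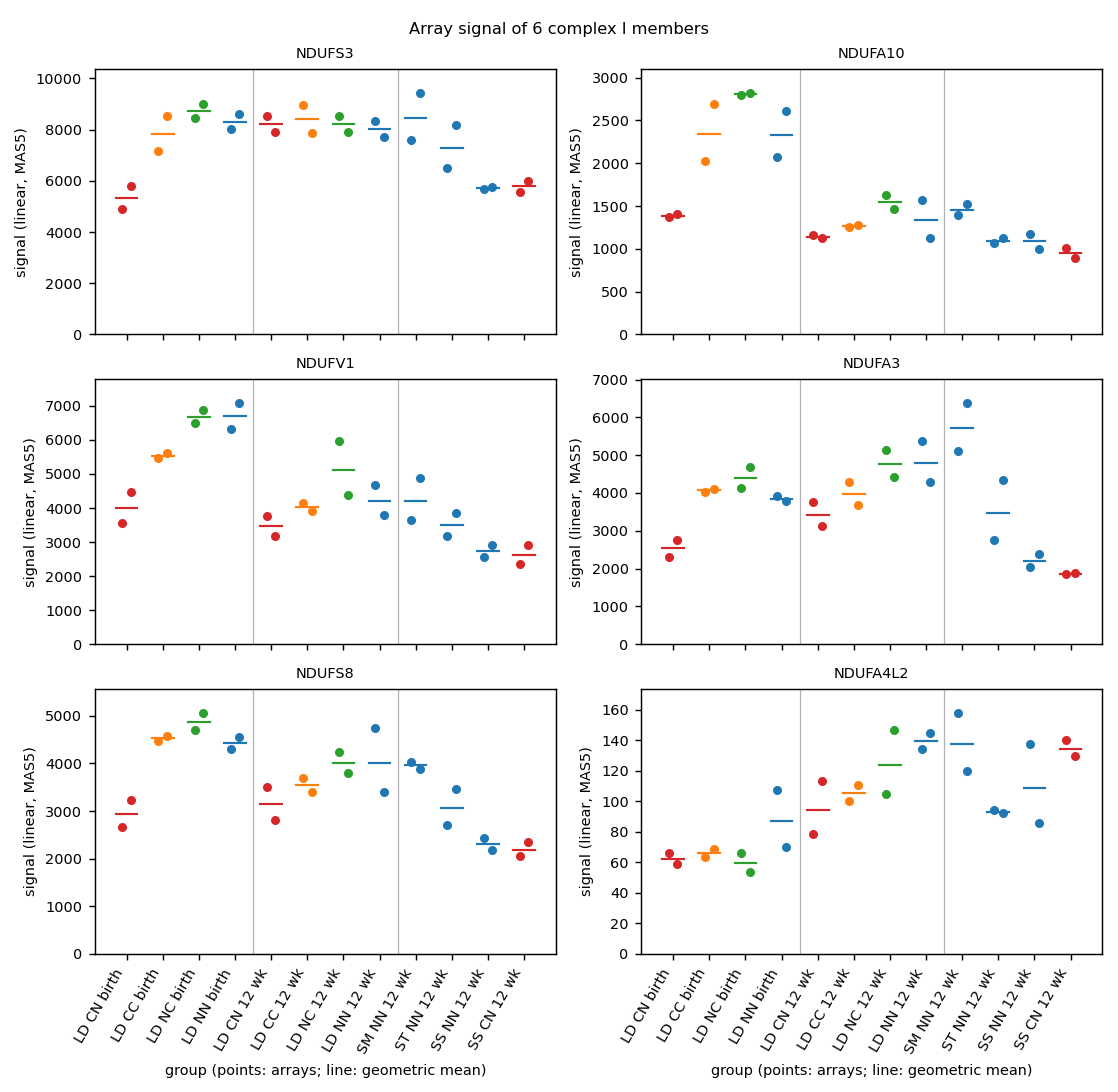
Linear MAS5 signal of 6 members on every array, by group, with points for arrays and a short line for their geometric mean; colours mark the genotypes CN (red), CC (orange), NC (green) and NN (blue). NDUFS3 in CN is low at birth (4916 and 5796) and within the range of the other genotypes at 12 weeks, while NDUFA3 and NDUFS8 are lowest in SS.

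Over growth of LD from birth to 12 weeks in CC, NC and NN, 11 of 42 members were called, 10 lower and 1 higher. Of all probe sets 5.81% were called lower and 5.92% higher. The brightest 10% held 535 called of 1562, a larger share than that of the members. The median of the members was −0.24 against 0.06 over all probe sets. Array by array, 7 members were lower and 1 was higher on all 6 arrays at 12 weeks than on all 6 at birth, where 4.98% of all probe sets were lower and 4.66% higher. In the brightest 10% these shares were 15.9% and 14%. The members' lower count was thus near that of probe sets as bright, and their higher count was below it. The birth arrays of these genotypes were also the comparators of CN at birth, so the values of both comparisons are not independent.

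NDUFA10 fell most. It read 2031, 2654 and 2816 (lowest, median, highest of 6 arrays) at birth and 1130, 1374 and 1628 at 12 weeks, a fall of 1.80-fold, or −0.85 ± 0.12 (limma adjusted p = 0.00173). NDUFC2, a small subunit of the proximal arm, fell from a median of 7978 to 4257 (−0.76 ± 0.13, limma adjusted p = 0.00496), although the lowest array at birth (5010) lay under the highest at 12 weeks (5251). NDUFA6 fell without overlap. Its arrays read 3529 to 4685 at birth and 2310 to 2915 at 12 weeks (−0.68 ± 0.12, limma adjusted p = 0.005).

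The other falls were spread over the complex. In the NADH module NDUFV3 fell by 0.54 and NDUFV1 by 0.50 on the log2 scale. NDUFC1 of the proximal arm fell by 0.67 and NDUFB9 of the distal arm by 0.47. NDUFA9 of the matrix arm fell by 0.37. Both NDUFAF5 (−0.79 ± 0.21) and NDUFAF3 (−0.41 ± 0.12) among the assembly factors fell. The quinone module had no called member, and its 4 subunits lay between −0.26 and −0.01, with NDUFS3 at −0.01 ± 0.09.

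Of the members above 0, NDUFA4L2 alone passed. It read 53.9 to 107.3 at birth and 100.2 to 147.1 at 12 weeks, near the array medians at birth, a difference of 0.80 ± 0.23 (limma adjusted p = 0.0437). Its other probe set, with a mean signal of 80.5, pointed the opposite way at −0.91 ± 0.28 (limma adjusted p = 0.0562), so the gene has no settled direction here. NDUFA1, a small subunit needed for assembly of the membrane arm, read 4263 to 5607 at birth and 5681 to 7502 at 12 weeks, the only member with all arrays higher, at 0.29 ± 0.10 (limma adjusted p = 0.101). NDUFA5 also differed between its probe sets. The brightest was at −0.25 ± 0.09 and the next, with a mean signal of 2269, fell by 0.69 (limma adjusted p = 0.00485).

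In the other complexes, growth called 4 lower and 1 higher of 9 genes in complex III, 3 lower of 13 in complex IV and 3 lower of 17 in the ATP synthase. Complex II split, with SDHC at −0.36 ± 0.10 and SDHD at 0.44 ± 0.10, both called. Red blood cell markers were called lower in 2 of 5, and fibre markers were higher in 7 of 7 with 1 called. Fibroblast and matrix markers were called lower in 2 of 8 (median −0.03), with sums of 61465 to 73189 at birth and 41987 to 56805 at 12 weeks. Immune markers were called higher in 1 of 3, with sums of 237.2 to 272.9 and then 362.4 to 436.9. Cardiac or smooth muscle markers were called higher in 1 of 3, with overlapping sums of 258.2 to 421.3 and then 391.9 to 742.2. Adipocyte markers were lower in 4 of 4 with 0 called (median −0.71). The GAPDH ratio was 0.131 to 0.307 at birth and 0.043 to 0.246 at 12 weeks. For actin it was −0.07 to 0.196 at birth and 0.031 to 0.294 at 12 weeks. The part of these in the members' falls was not tested. Of the 11 calls, NDUFA10, NDUFC2 and NDUFA6 held in all 24 fits that left out 1 array. The count was 7 without the second CC array at birth and 5 without the second NC array at 12 weeks. With a variance prior that ignores signal level 0 members passed, and with the mean of all probe sets of a symbol 7 did.

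Between muscles at 12 weeks, SS stood apart. Compared with LD of CC, NC and NN, SS of NN had 36 of 42 members lower, with a median of −0.35 against 0.02 over all probe sets and −0.11 in the brightest 10%. Of these 6 were called lower and 0 higher, where 1.54% of all probe sets were called lower and 1.43% higher. Both SS arrays lay below all 6 LD arrays for 24 members, against 9.9% of all probe sets and 29.8% of the brightest 10%.

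NDUFA3, an accessory subunit of the proximal arm, differed most. It read 2051 and 2386 in SS and 3681, 4353 and 5378 (lowest, median, highest) in LD, a fall of 2.03-fold in SS, or −1.02 ± 0.15 (limma adjusted p = 0.00493). In SM it read 5110.0 and 6378, above or within the LD range, and in ST 2757 and 4344, arrays that differed widely. It was the 1 member called against SM and ST as well, at −1.01 ± 0.16 (limma adjusted p = 0.015), where 0.538% of all probe sets were called lower, and the 1 member called by the F test over the 4 muscles (1.29% of all probe sets).

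The quinone module held 3 of the 6 members called lower in SS than in LD. Of these, NDUFS3 and NDUFA5 passed narrowly, and were called in 2 and 3 of the 24 fits that left out 1 array. NDUFS8 read 2427 and 2179 in SS and 3393 to 4748 in LD (−0.74 ± 0.14, limma adjusted p = 0.0157). NDUFS3 read 5668 and 5757 against 7701 to 8964 (−0.52 ± 0.12, limma adjusted p = 0.0496). NDUFA5 was at −0.55 ± 0.13, at the same adjusted p, but its next probe set was at 0.31 ± 0.17 and did not pass. In the distal membrane arm NDUFB9 (−0.67 ± 0.14) and NDUFB10 (−0.69 ± 0.15), which lies on the intermembrane side, were lower.

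Other members did not go along. NDUFB5, dim as above, read 118.4 and 120.1 in SS against 59.9 to 117.9 in LD (0.49 ± 0.44). NDUFB4 was at 0.18 ± 0.19 and NDUFA6 at 0.10 ± 0.17. In the NADH module all 8 were below 0, from −0.70 for NDUFV1 (2556 and 2926 in SS, 3802 to 5962 in LD, limma adjusted p = 0.0555) to −0.01 for NDUFA2, and 0 of 8 passed.

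**Figure D5:**
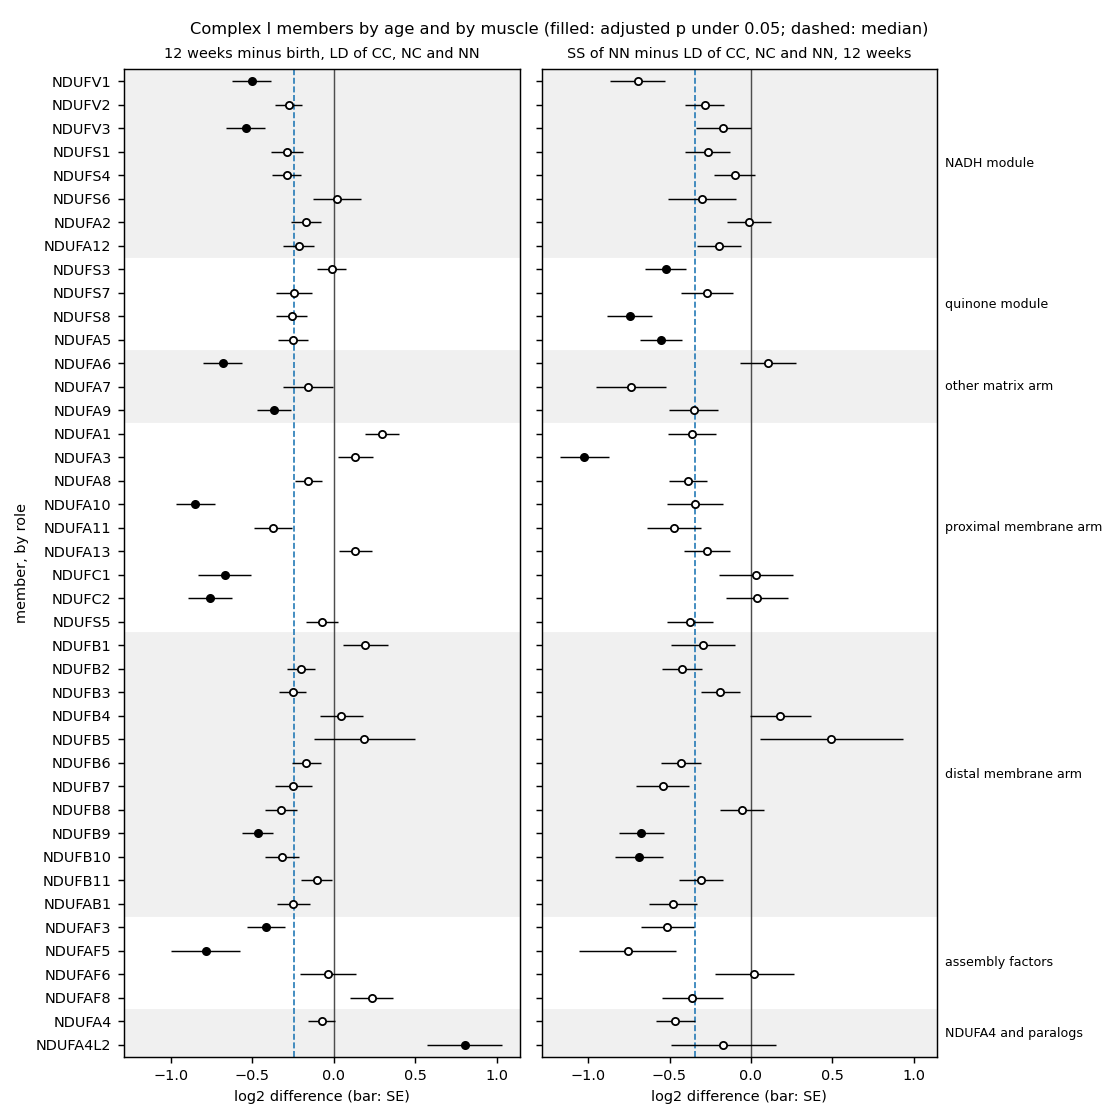
Log2 difference of each member (rows, by role) between 12 weeks and birth in LD of CC, NC and NN (left) and between SS of NN and LD of CC, NC and NN at 12 weeks (right). Points are limma estimates, bars their standard errors, filled points passed the adjusted threshold and dashed lines mark the medians (−0.24 and −0.35). NDUFA10 is the lowest point of the age panel and NDUFA3 the lowest of the muscle panel.

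Marker lists moved with the muscle. Slow-fibre markers were higher in SS in 8 of 8 with 3 called (median 0.65), and their sums were 189816 and 198879 in SS against 104176 to 141953 in LD. Adipocyte markers were higher in 4 of 4 with 2 called, with sums of 2577 and 2659 against 445.5 to 878.4. Endothelial markers were lower in 5 of 5 (median −0.38, 0 called). The other complexes were lower too, with medians of −0.38 for complex II, −0.32 for complex III, −0.16 for complex IV and −0.30 for the ATP synthase. The GAPDH ratio was 0.024 and 0.058 in SS and 0.043 to 0.246 in LD. For actin it was 0.127 and 0.088 in SS and 0.031 to 0.294 in LD. What part these have in the members' values was not tested. NDUFA3 and NDUFS8 were called in all 24 fits that left out 1 array, NDUFB9 in 20, NDUFB10 in 18, NDUFA5 in 3 and NDUFS3 in 2. The count fell to 3 without the first NC or 2 without the second NN array of LD at birth, to 2 or 3 without the first CC, second NC or either NN array of LD at 12 weeks, and rose to 10 without the second SS array. With a variance prior that ignores signal level 0 members passed.

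Against SM and ST, SS had 40 of 42 members lower with a median of −0.29, and NDUFB5 and NDUFB4 were the exceptions. NDUFAF5 was at −0.92 ± 0.32 and NDUFA7 at −0.88 ± 0.23, neither called. NDUFAF5 was at −0.55 without the first SS array and at −0.43 with the mean of its probe sets, and its other probe set read 0.05 ± 0.30. NDUFA3 was called alone, and without the first SS array 2 members were. SM and ST together gave no called member against LD (0.0448% of all probe sets called) and 0 at an unadjusted p under 0.05, where 4.21% of all probe sets were lower and 3.12% higher. The median was −0.06, with a range from −0.23 for NDUFA9 to 0.30 for NDUFC1. The ST arrays lay far apart, and without the first of them this median was 0.03.

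Within SS, CN lambs were compared with NN. No member was called, as was no probe set at all (0%), and 0 members passed at an unadjusted p under 0.05, where 2.15% of all probe sets were lower and 2.02% higher. The median was −0.07 with 30 of 42 lower, and without the first CN array it was 0.02. NDUFB5 was lowest at −0.92 ± 0.54 (54.8 and 73.0 in CN, 118.4 and 120.1 in NN) and NDUFAF8 highest at 0.41 ± 0.23. NDUFA3 read 1845 and 1889 in CN against 2051 and 2386 in NN (−0.24 ± 0.19). The CN difference in LD minus that in SS had a median of −0.14, from −0.68 for NDUFA4L2 to 0.44 for NDUFB5, with 0 called of members and of all probe sets (0%). At an unadjusted p under 0.05 there were 0 members, where 3.41% of all probe sets were lower and 1.56% higher. Its median was −0.06 without the second LD CN array and −0.05 without the second SS CN array.

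The other carriers of the mutation were compared with NN in LD over both ages. In NC, 26 members were higher and 16 lower, with a median of 0.03 (−0.01 after quantile normalization), 0 called (0.0128% of all probe sets) and 1 lower at an unadjusted p under 0.05, as were 2.32% of all probe sets. That member was NDUFB5 at −0.85 ± 0.33. In CC, 34 were lower with a median of −0.09, 0 called (0.0128% of all probe sets) and 2 lower at an unadjusted p under 0.05, as were 2.8% of all probe sets. Those were NDUFC1 (−0.41 ± 0.18) and NDUFA7 (−0.40 ± 0.18), and no member was above 0.10. NDUFV1 at birth shows the spread among these genotypes, with mean signals of 5540 in CC, 6685 in NC and 6695 in NN beside 3992 in CN.

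The other probe sets of the members are dimmer by the rule that picked the brightest of each symbol. Of 15 such probe sets 9 were tested, for 8 members. For CN in LD at birth 7 of these 9 pointed the same way as the brightest probe set and 0 were called. The exceptions were those of NDUFS3 (0.12 ± 0.36, mean signal 75.7) and NDUFA11 (0.57 ± 0.84, mean signal 30.6). Of the 7, that of NDUFS1 (−0.067 ± 0.287, mean signal 94.6) and 1 of NDUFA5 (−0.055 ± 0.171, mean signal 2269) lay near 0. The brightest probe sets of these genes were at −0.653 and −0.428. The others of the 7 ran from −0.688 to −0.223. For growth 3 of 9 pointed the same way, and for SS against LD 6 of 9 did.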

How the data were processed

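Total RNA of 12 groups of sheep muscle (5 µg per array, per the labels) was read on 24 bovine Affymetrix arrays. The deposited intensity values are linear signals per probe set that the authors made with MAS5, per the submitters' processing notes. The sources used here do not name its version. Every array had a trimmed mean signal of 200.08 to 200.09, so the deposited values were already scaled to one level. Array number and signal over background limit the precision.

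Of 24128 probe sets, 112 controls were left out, and 15613 were tested. Values at or below 1 (5477 of 579072, 0 of members) were set to 1 before log2. The technical arrays were averaged, and limma 3.58.1 in R 4.3.3 (lmFit, eBayes with trend, two-sided) was fitted to the 12 group values in 8 cells (4 residual degrees of freedom, prior 6.88). A second fit to the 8 LD groups, with genotype and age as terms, gave NC and CC against NN (residual degrees of freedom 3, prior 7.18). Adjusted p-values follow Benjamini-Hochberg over all tested probe sets.

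Symbols came from the platform annotation: 13318 probe sets had 1 symbol, 86 had several and were not used, and 10724 had none. Members called (up to 12 per comparison), the 3 largest and 3 smallest differences and the core subunits were named, and other members for their role. Some probe sets and counts singled out here were chosen after their values were seen. The members and all gene lists were chosen with earlier results of these data known. The alternatives were quantile normalization, a floor or pseudocount of 16, other filters, no intensity trend, the mean of a symbol's probe sets, NN alone as comparator, LD groups alone, all 24 arrays in 1 fit and leaving out each array. No sequences or coordinates are given.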

Additional observations from a re-analysis of the deposited data

How the results depend on the processing

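For CN in LD at birth, 12 named members kept their direction in all 408 values from 34 alternatives. Many of these values could not change. The estimate stays the same without an array of another age or muscle, with other filters, without an intensity trend and with LD groups alone. The count of 408 is therefore no measure of stability. Where the estimates could change, their sizes moved more than their directions. With the mean of a symbol's probe sets NDUFS3 went from −0.634 to −0.256 and NDUFS1 from −0.653 to −0.302. NDUFB8 went from −0.199 to −0.004 with quantile normalization. In the other direction, NN as the only comparator took NDUFB5 from −0.963 to −1.463 and NDUFA7 from −0.776 to −1.059. With the 24 arrays as samples and a replicate block, the members called were 20 at birth, 1 for the interaction, 20 for growth, 17 for SS against LD, 6 for SS against SM and ST and 14 for the F test. That fit counts technical arrays nearly as independent samples (within-group correlation 0.037). A check on whether array numbers pair the groups gave correlations from −0.073 to 0.097 over 66 pairs. The members by themselves shared a direction in LD at birth. There 37, 32, 33 and 33 members were higher on the second array in CC, CN, NC and NN, and 5, 10, 9 and 9 lower. In LD at 12 weeks 27, 16, 15 and 15 were higher in these genotypes, and 15, 26, 27 and 27 lower. Whether array number affected the members was not tested. Without an intensity trend 0 members were called for growth, SS against LD, SS against SM and ST and the F test. With the mean of a symbol's probe sets 7 were called for growth. Quantile normalization took the calls over all probe sets from 27 to 7 at birth and from 28 to 11 at 12 weeks.

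Leaving out 1 array at a time gave 0 to 9 members called for CN at birth, 0 to 2 at 12 weeks (median −0.244 to −0.147), 5 to 14 for growth, 2 to 10 for SS against LD, 1 to 2 for SS against SM and ST and 1 to 3 for the F test. The median ran from 0.262 to 0.404 for the interaction, −0.144 to 0.016 for CN in SS, −0.153 to −0.048 for LD minus SS and −0.13 to 0.027 for SM and ST against LD.

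Some values, none of them called, changed sign when 1 array was left out. At 12 weeks in CN these were NDUFB4 (−0.029 to 0.162), NDUFS3 (−0.055 to 0.058) and NDUFV2 (−0.107 to 0.001). For the interaction they were NDUFAF6 (−1.427 to 0.275) and NDUFA4L2 (−0.477 to 0.056), and for LD minus SS NDUFAF6 (−1.391 to 0.312). NDUFS3 did so for growth (−0.054 to 0.029), and NDUFS5 (−0.528 to 0.007) and NDUFA4L2 (−0.031 to 0.652) for CN in SS. NDUFB5 did so for SM and ST against LD (−0.502 to 0.1), NDUFB4 (−0.043 to 0.209) and NDUFC2 (−0.194 to 0.134) for SS against SM and ST, and NDUFAF6 (−0.116 to 0.305) and NDUFB10 (−0.077 to 0.159) for CC.

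The mean of a symbol's probe sets turned NDUFS3 (0.265), NDUFS1 (0.168) and NDUFA4L2 (−0.054) for growth, NDUFS3 for CN at 12 weeks (−0.147), NDUFA4L2 (−0.128) and NDUFAF5 (−0.145) for CN in SS, NDUFS1 for SS against LD (0.299) and NDUFA4L2 for NC (0.028). Quantile normalization turned NDUFV2 for CN at 12 weeks (0.018), NDUFS3 for growth (0.017) and NDUFC2 for SS against SM and ST (0.047). NN as the only comparator turned NDUFB4 at 12 weeks (−0.152). The cause was not tested. Dim members such as NDUFB5 and NDUFA4L2 lie near background, which limits their differences.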

Other observations

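Assembly factors of complex I with names outside the NDUF series were compared over growth of LD. Of 10 tested, 8 were lower at 12 weeks than at birth in CC, NC and NN, and 1 was called, where 5.81% of all probe sets were called lower and 5.92% higher. TMEM126A, a mitochondrial membrane protein, fell by 0.40 on the log2 scale (limma adjusted p = 0.0146). ACAD9, an acyl-CoA dehydrogenase that doubles as an assembly factor, was at −0.69 ± 0.20 (limma adjusted p = 0.0522). Among 6 tested regulators of mitochondrial genes PPARGC1A, a coactivator of mitochondrial biogenesis, was at −0.54 ± 0.17 (limma adjusted p = 0.0624), and 0 were called. In SS against LD the 10 assembly factors gave 0 calls, with TMEM70 at 0.74 ± 0.22 (limma adjusted p = 0.103), and SDHB of complex II was called at −0.58 ± 0.12 (limma adjusted p = 0.0274).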
